A study of Mus musculus with 2 samples.

Results

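The muscle acetylcholine receptor and the proteins that gather it at the nerve-muscle synapse were described here through 8 genes: Chrna1, Chrnb1, Chrnd, Chrng and Chrne for the receptor subunits, and Musk, Dok7 and Rapsn for the clustering machinery. They were taken by gene symbol from the platform annotation, using each probe set that names 1 of these genes and no other. This gave 11 probe sets for 8 of the 18193 genes on the array, with 3 probe sets for Chrng and 2 for Dok7. The RNA came from dissected cerebral cortex at E17.5 of 1 wild-type mouse embryo (Sox11 +/+) and 1 Sox11 -/- littermate. Both came from a cross of Sox11 +/- parents on a background given as C57BL/6 and 129. Each embryo gave 1 Affymetrix array, with no pooling and no second animal. Every difference below is therefore a difference between 2 libraries, Sox11 null minus wild type on the log2 scale, with no replicate check, no test and no error between embryos. In bulk RNA, fewer cells of a type and less RNA per cell cannot be told apart.

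The muscle receptor is a ligand-gated cation channel that opens when the motor nerve releases acetylcholine. In fetal muscle its pentamer holds alpha, beta, delta and gamma subunits, and after birth the epsilon subunit replaces gamma. Nerve-derived agrin binds the receptor Lrp4, which activates the kinase MuSK. Dok7 is the cytoplasmic activator of MuSK, and the scaffold rapsyn, the product of Rapsn, ties the receptors together under the nerve ending. These genes are known as skeletal muscle genes, and their transcription depends on myogenic factors that bind E-boxes. At the synapse it also depends on Ets-type factors that bind the N-box of Chrne.

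The promoters of 3 subunit genes are shown because the fetal and adult subunits are compared below, with Chrna1 as the subunit that both receptor forms share. Each is the 250 bases before the annotated start site, 5′ to 3′ on the strand of the gene, from RefSeq on GRCm38.p6. Capitals mark every E-box (CANNTG, which reads the same pattern on both strands) and N-box (CCGGAA, or TTCCGG for the other strand). No E-box and N-box overlap in them. Chrng lies on the plus strand at chr1:87205561-87205810, Chrna1 on the minus strand at chr2:73580339-73580588 and Chrne on the minus strand at chr11:70619195-70619444.
Chrng: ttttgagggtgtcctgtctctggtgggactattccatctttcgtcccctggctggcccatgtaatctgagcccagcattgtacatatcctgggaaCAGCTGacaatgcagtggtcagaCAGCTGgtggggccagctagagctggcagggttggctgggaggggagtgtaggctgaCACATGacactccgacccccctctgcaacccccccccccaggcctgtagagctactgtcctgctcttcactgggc
Chrna1: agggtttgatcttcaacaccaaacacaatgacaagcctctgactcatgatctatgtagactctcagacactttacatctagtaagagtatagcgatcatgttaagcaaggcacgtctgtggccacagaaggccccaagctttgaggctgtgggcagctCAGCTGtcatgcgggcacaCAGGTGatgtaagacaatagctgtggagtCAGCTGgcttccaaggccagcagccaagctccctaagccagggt
Chrne: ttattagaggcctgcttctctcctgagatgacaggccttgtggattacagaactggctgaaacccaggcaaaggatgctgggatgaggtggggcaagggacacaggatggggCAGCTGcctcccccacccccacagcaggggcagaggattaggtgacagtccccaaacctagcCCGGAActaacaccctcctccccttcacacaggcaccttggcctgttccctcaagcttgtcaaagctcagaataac

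The fetal-subunit promoter held 3 E-boxes, of which 2 read CAGCTG, and no N-box. Chrna1 also held 3 E-boxes, 2 of them CAGCTG, and no N-box. In Chrne there was 1 E-box, again CAGCTG, and 1 N-box 76 bases before the start site. An E-box was present in 66.2% of the 32851 promoter windows of this length in the RefSeq table, and 3 or more in 12.2%. CAGCTG occurred at least 2 times in 1.26% of the windows and at least once in 13.0%, and the N-box in 12.0%. Chrnb1 and Musk each had 3 E-boxes, and Dok7 had 1 in the first of its 2 windows and 0 in the second. Windows were found for 6 of the 8 genes, and Chrnd and Rapsn have no entry. A match of letters is a description of the sequence and not a site shown to be bound.

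The libraries carried signals and differences that touch all results below. Sox11 was lower in the null library with all 6 of its probe sets, which kept 16.4% to 47.8% of the wild-type signal. Xist, the RNA of the inactive X chromosome, gave 17505 on the wild-type array against 155 on the null array, and the Y-linked Uty gave 21.8 and 617, so the sex of the embryo and the genotype cannot be told apart. The beta-actin control had a ratio of 3′ to 5′ signal of 1.78 on the wild-type and 1.16 on the null array, and that of Gapdh was 0.922 and 0.816. Although both samples are labelled as cortex, all 17 skeletal muscle markers of a list were above the array median in at least 1 library and none was at 0. Their summed signal was 161170 on the wild-type and 165680 on the null array. Of the cortical neuron markers, all 7 analysed were likewise above the median, with Neurod6, a transcription factor of excitatory neurons, at 3019 and 2723. The neuromuscular genes were thus read from RNA that held both muscle and cortical transcripts.

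Of the 8 genes, 4 were measured, meaning that at least 1 array reached its median (177.5 for wild type and 177.4 for the null). They were Chrna1, Chrnb1, Chrng and Dok7. Musk and Rapsn lay between the 25th percentile, used as a floor (52.9 and, after centring, 53.3), and the median. Chrnd and Chrne were below the floor on both arrays, so no difference is given for them. No detection call was used, and probe sets bind their targets with different strength, so the signal of 1 gene is not set against that of another.

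**Figure D1:**
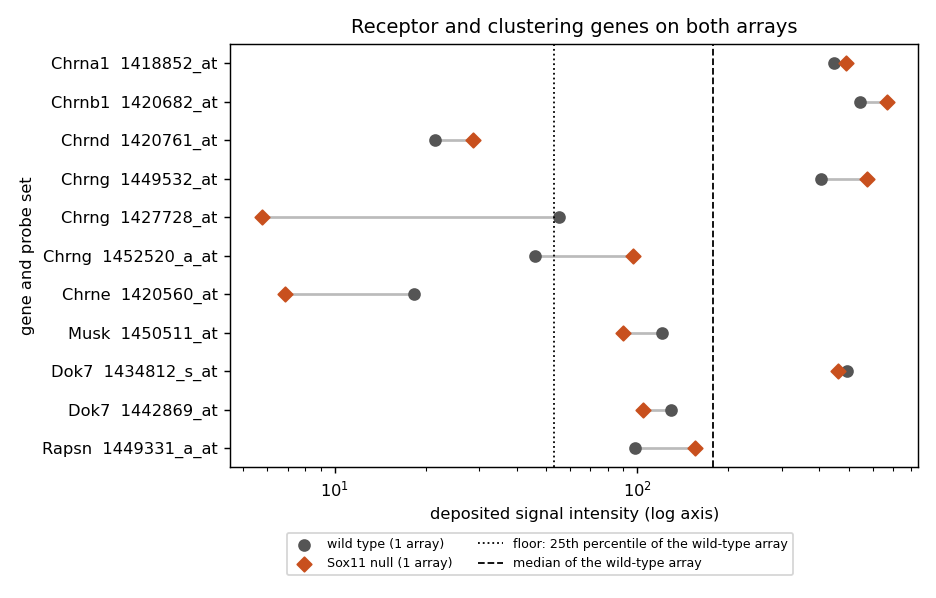
Deposited signal intensity on a log axis for each of the 11 probe sets, with a grey circle for the wild-type array, an orange diamond for the Sox11-null array and a line joining them. The dotted and dashed lines are the 25th percentile and the median of the wild-type array. Chrna1, Chrnb1, the first Chrng and the first Dok7 probe set lie right of the median on both arrays, and Chrnd and Chrne lie left of the floor on both.

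None of the 4 measured genes differed by 1.5-fold, against 6.30% of the 12390 measured genes of the array. Their median difference was 0.23, with 3 of 4 positive, while the median of all measured genes was set to 0 by centring and 6195 of them were positive. Where a pair of signals is given for a gene, wild type comes first and the null library second. A difference within 0.1 of 0.23 was shared by 2277 measured genes (18.4%). With 2 arrays a pattern across samples is a single difference, and no gene was named as resembling these. The 4 differences ran from -0.07 for Dok7 to 0.52 for Chrng.

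Among the receptor subunits, Chrna1, which encodes the alpha subunit that carries the acetylcholine binding site, had a wild-type signal of 447.9 and a null signal of 490.0. The null library stood at 109% of wild type, a difference of 0.15. Chrnb1, the beta subunit gene, was at 544 and 670, or 123% of wild type, and its difference was 0.32. Different probe sets of 1 gene on these same arrays differed from each other with a pooled SD of 0.39 (13427 measured probe sets of 5155 genes), and both subunit differences are smaller than that. Both subunits belong to the fetal and the adult receptor alike.

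Chrng, the gamma subunit gene of the fetal receptor, had the largest difference of the measured members. Its brightest probe set, 1449532_at, gave 405 on the wild-type array and 574 on the null array. The null signal was 142% of wild type, a difference of 0.52. In the third of measured genes by level that holds it (4130 genes), the central 95% of differences ran from -0.49 to 0.57, so Chrng lay inside that range. The other probe sets of Chrng were dim and opposed each other. With 1427728_at the signal was 55.1 on the wild-type and 5.74 on the null array, and with the null value at the floor the difference is -0.05 or lower. With 1452520_a_at it was 46.1 and 97.0, and against the floor this is a difference of at least 0.89. These opposite probe sets were designed on the same sequence record, and the brightest one on another. Averaged over all 3 probe sets with the floor kept, Chrng was at 0.42. With no floor as well, an alternative added after the values were seen, it was at -0.58. That turn of direction came through 1427728_at, which was at -3.24 with no floor because of its null signal of 5.74, below the floor.

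The delta subunit gene Chrnd, which neighbours Chrng on chromosome 1 with no protein-coding gene annotated between them, had signals of 21.5 (wild type) and 28.6 (null). Chrne, the epsilon subunit gene that takes the place of gamma in adult muscle, was at 18.3 and 6.87. Both arrays were below the floor for both genes, which is a limit on the signal and does not show that the transcripts are absent.

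The comparison of the fetal with the adult subunit therefore has a value on 1 side only. By the brightest of its 3 probe sets the gamma subunit gene was above the median of both arrays, but its other probe sets were below both medians. The epsilon subunit gene was below the floor of both arrays by its only probe set. These levels are therefore not set against each other. A difference of differences could be computed only with no floor. There Chrng was at 0.52 and Chrne at -1.39, which are 1.92 apart, and with the probe sets averaged as well they were at -0.58 and -1.43, which are 0.85 apart. Both values rest on Chrne signals below the 25th percentile of the arrays.

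Other muscle genes with fetal and adult forms were read from lists of their own. Of the fetal list, all 5 measured genes were within 1.5-fold by their brightest probe sets and all were positive, with a median of 0.28. The brightest were Actc1, the cardiac actin that fetal skeletal muscle also makes (15815 and 18986, 0.28), and Myh8, the perinatal myosin heavy chain (15140 and 16871, 0.18). Of the adult list, all 4 measured genes were within 1.5-fold, 2 were positive and the median was 0.06. In that list Myh1, a fast adult myosin heavy chain, was at 0.13 (and at -0.17 by its other measured probe set) and Pvalb, a calcium buffer of fast fibres, was at -0.43. Myh2, another fast myosin heavy chain, was at 0.53, and the dim chloride channel gene Clcn1 was at 1.40 or higher. By the brightest probe sets the highest fetal value was 0.43 (Tnnt2), but the other measured probe set of Tnnt2 gave 0.65. The adult median was -0.05 with all probe sets averaged. No test of the difference between these lists was possible with 1 array per genotype.

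**Figure D2:**
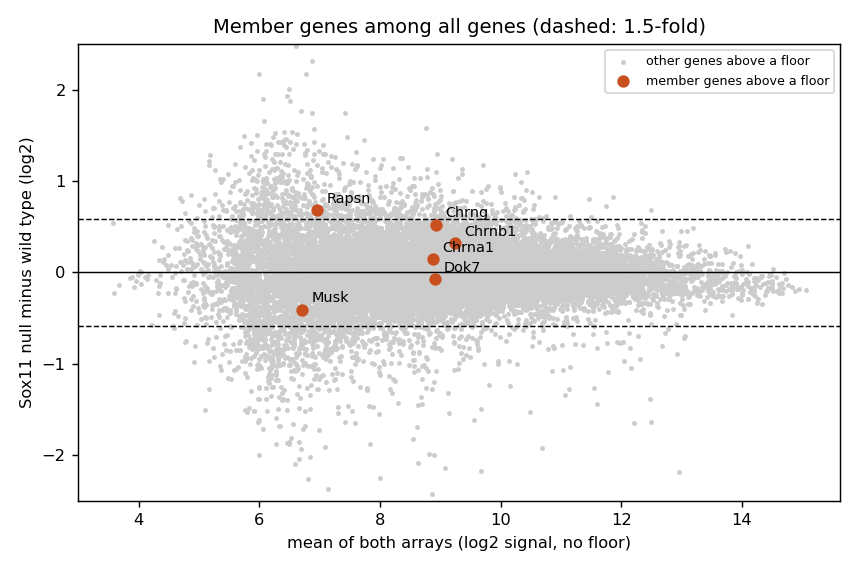
Difference between the Sox11-null and the wild-type array (log2) against the mean log2 signal of both, with each gene above a floor as a grey point and 6 member genes in orange. Dashed lines mark 1.5-fold and 11 genes lie outside the drawn range. The 4 measured members lie between the dashed lines, and Rapsn lies just above the upper one among dim genes that spread widely.

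The clustering proteins did not share a direction. Dok7 was the only measured one, with a wild-type signal of 492 and a null signal of 462 by 1434812_s_at, or 93.9% of wild type and a difference of -0.07. The ending _s_at marks a probe set that can bind more than 1 transcript. The second, dimmer probe set of Dok7, 1442869_at, was at 129 and 105, a difference of -0.28. Both probe sets of Dok7 were lower in the null library, by less than the spread of 0.39 between probe sets of 1 gene.

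Musk, the receptor kinase, gave 121 on the wild-type array and 89.8 on the null array, a difference of -0.41. Rapsn, the receptor scaffold, was at 98.3 and 155, or 158% of wild type, a difference of 0.68. Musk was thus lower and Rapsn higher in the null library, with both below the median of both arrays. Rapsn is the single member beyond 1.5-fold once dim genes are counted, 1 of 6 genes above a floor, where the share over all 15863 such genes was 9.60%. Among the 3473 dim genes alone 21.4% were beyond 1.5-fold and the central 95% of differences ran from -1.01 to 1.00, so the values of both genes lay inside that range. The median of the 3 clustering genes was -0.07.

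**Figure D3:**
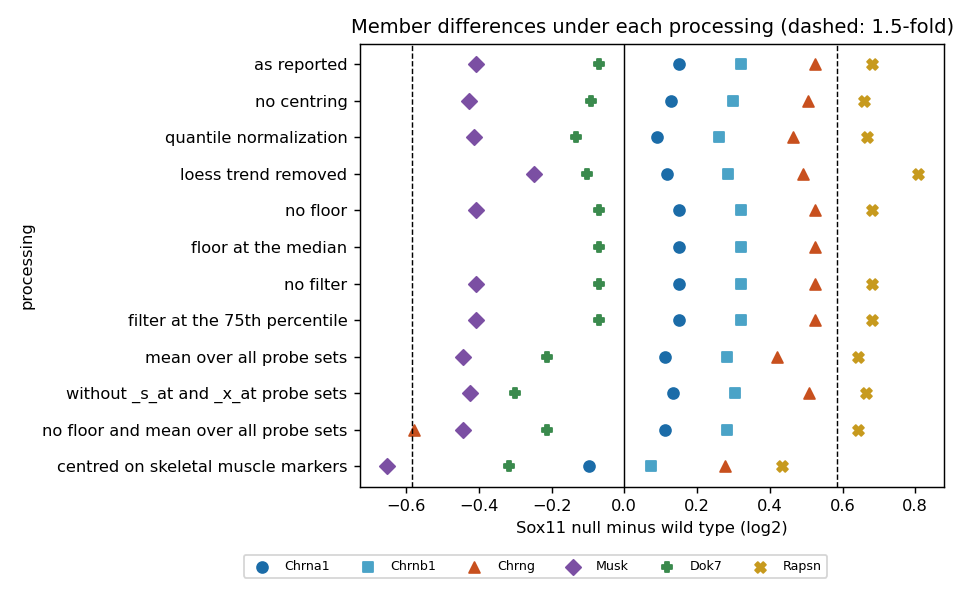
Difference between the Sox11-null and the wild-type array (log2) for the 6 member genes above a floor, with 1 row for each way of processing and dashed lines at 1.5-fold. From low to high the order is Musk, Dok7, Chrna1, Chrnb1, Chrng and Rapsn in every row, for the genes it shows, except that Chrng moves to -0.58 where all its probe sets are averaged with no floor.

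The partners of these genes were read from 8 lists of 73 genes, of which 66 were on the array by a single-gene probe set and 52 were measured. Of the 52, 2 were beyond 1.5-fold higher in the null library and 0 lower, against 3.07% and 3.24% of all measured genes. In these lists 38 of 52 differences were positive and the median was 0.14. Agrn, the agrin gene, which encodes the ligand of the clustering signal, was nearly level at 2929 and 2931 (0.02). Lrp4, the receptor that agrin binds, was at 436 and 506 (0.23). All 15 measured genes of agrin signalling were within 1.5-fold by their brightest probe sets, with a median of 0.14. Its brightest members, the catenin gene Ctnnb1 and the 14-3-3 gene Ywhag, were at -0.10 and 0.14, although the other probe sets of Ctnnb1 gave 0.71. Other measured probe sets also gave 0.92 for Dnaja3 and 0.65 for Crkl, and they had the opposite sign for Cttn (-0.23, then 0.56) and Dvl1 (-0.29, then 0.52). They turned from positive to negative for Abl2 (0.14, then -0.31), Sorbs2 (0.37, then -0.31) and Cdc42 (0.21, then a mean of -0.09).

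In the synaptic cleft and basal lamina, 7 of 8 measured genes were within 1.5-fold, and 5 of the 8 were positive. The negative ones were Hspg2 (-0.29, and -0.38 by its other measured probe set), Lama4 (-0.20) and Col13a1 (-0.17). The laminin gene Lama5 was higher in the null library, at 424 and 639 (0.61, and 0.98 by its other measured probe set). Ache, the acetylcholinesterase that ends each signal, was at 320 and 345 (0.13). Colq, the collagen tail that anchors it, was dim at 59.1 and 94.2 (0.69). The median of the list was 0.12.

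The utrophin and dystrophin complex, which links the postsynaptic membrane to the cytoskeleton and basal lamina, had 7 of 8 measured genes within 1.5-fold and a median of 0.28. Sgcb, a sarcoglycan, was at 1196 and 2084 (0.82), but its other measured probe sets gave a mean of 0.17. Utrn, the utrophin gene of the synaptic membrane, was at 1013 and 1040 (0.06, and 1.05 by its other measured probe set). All 6 measured genes of neuregulin signalling and synaptic transcription were within 1.5-fold by their brightest probe sets, with a median of 0.10, and of 0.36 with all probe sets averaged. Etv5, an Ets factor needed for synaptic transcription in muscle, was at 0.03 and Gabpa, an Ets factor that binds the N-box, at 0.17. Their other measured probe sets gave 0.56 and 0.64, and that of Gabpb1, the partner of Gabpa, gave 1.10.

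The neuronal acetylcholine receptor subunits, made by neurons rather than muscle fibres, were mostly dim: 3 of 10 analysed were measured, and all 3 were within 1.5-fold. Chrna4 was at 239 and 324 (0.46) and Chrna7, the subunit of the homomeric receptor, at 320 and 311 (-0.02). The myogenic factors, which bind E-boxes of subunit genes, had 3 of 4 genes measured, all positive and within 1.5-fold, with a median of 0.38. Myf5 was dim at 176 and 166 (-0.07), and with no filter the median was 0.31. Myog was at 1204 and 1407 (0.25) and Myf6 at 452 and 632 (0.50).

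Markers of the cells that could carry these transcripts differed in direction. The 17 skeletal muscle markers were all within 1.5-fold, 13 of them positive, with a median of 0.25, beside the 0.23 of the 4 measured receptor and clustering genes. The medians were farther apart under other processing, with 0.06 for the markers and 0.11 for the members when all probe sets were averaged, and 0.29 and 0.17 with quantile normalization. With a filter at the 75th percentile they were 0.17 and 0.32, where 1 member, Chrnb1, was left. The brightest, the actin gene Acta1 and the fast troponin gene Tnnc2, were at 0.04 and -0.01. Centred on the muscle median instead of on all genes, which lowers every difference by 0.25 and was added after the values were seen, the median of the 4 measured members was -0.01. On that scale Chrna1 was at -0.10, Chrnb1 at 0.07, Chrng at 0.28 and Dok7 at -0.32. The dim Musk was at -0.65 and Rapsn at 0.43. This scale moves all genes alike, so it changes none of the distances between them. The size of the shift depends on the probe sets. The muscle median fell at Ttn (0.25), whose other measured probe sets gave a mean of -0.13, and it was 0.06 with all probe sets averaged. The part of muscle content in the member differences was not tested.

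The Schwann cell list, of genes used as markers of the glia that cover the nerve ending, had 5 of 6 analysed genes measured, with 0 positive and a median of -0.29. One of them, the cadherin gene Cdh19, was at 190 and 83.5, a difference of -1.16. It counted as measured through the wild-type array alone, and 3.24% of all measured genes were beyond 1.5-fold lower. The dim Foxd3 was at 0.02. Which cells of this bulk RNA gave the signals of the list was not tested. Of the motor neuron markers 2 of 8 were measured, Isl1 (-0.29, and 0.06 by its other measured probe set) and Prph (-0.38). The dim members went both ways, with the cholinergic genes Chat at 0.54, Slc18a3 at 0.57 or higher and Slc5a7 at 0.07, and the factors Isl2 and Lhx3 at -0.44 and -0.51. The median of the measured markers was -0.34, and -0.16 with all probe sets averaged. Mnx1, the defining motor neuron factor, was below both floors, and which cells gave the Isl1 and Prph signals was not tested. The cortical neuron markers had a median of -0.13 over 7 genes, with 2 positive, Emx1 (0.33) and Fezf2 (0.44). Fezf2 was at 162 and 217, so it counted as measured through the null array alone. Neurod6 and Bcl11b were at -0.13 and -0.10, but the other measured probe sets of Bcl11b gave a mean of 0.23. Neurod2 was at -0.16, and at -0.85 by its other measured probe set.

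**Figure D4:**
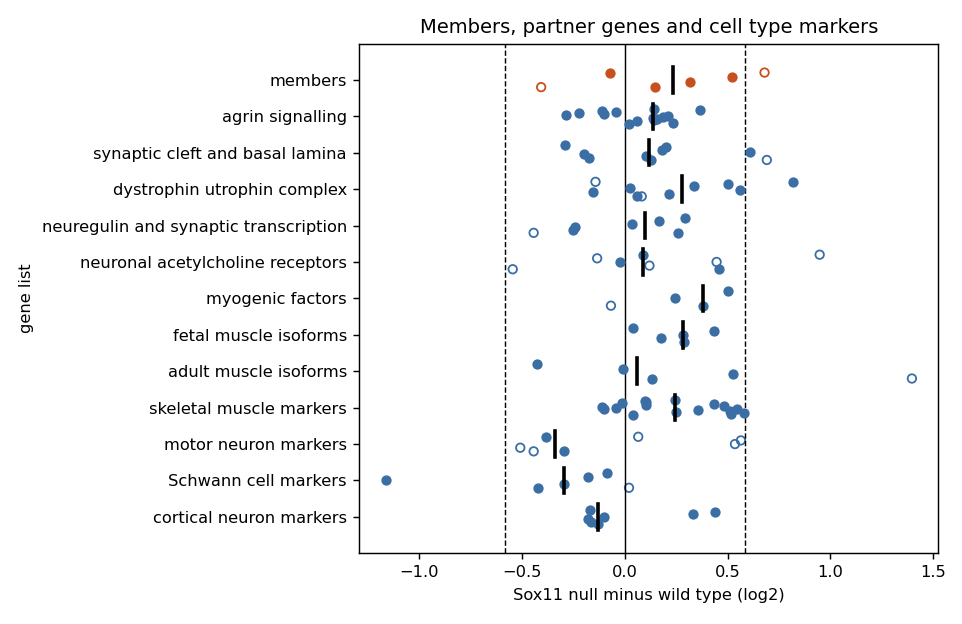
Difference between the Sox11-null and the wild-type array (log2) for each gene of the members (orange) and of 12 partner and marker lists (blue), with filled points for measured genes, open points for dim genes, a black bar at the median of the measured genes and dashed lines at 1.5-fold. The bars of the members and of the skeletal muscle markers lie at 0.23 and 0.25 with this processing, and those of the Schwann cell, motor neuron and cortical neuron markers lie below 0.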

How the data were processed

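RNA (10 micrograms per embryo, per the labels) was hybridised to 1 array per genotype. The deposited values are linear signal intensities from Affymetrix Expression Console, per the submitters' processing notes. No source used here names the summary algorithm or its version. The trimmed mean was the same on both arrays. The table held 45101 probe sets, and 64 controls were left out. Of the rest, 34945 named 1 gene (34741 with the symbol updated through RefSeq, GRCm38.p6). Each gene took its brightest probe set. The null array was centred on the median difference of measured genes (a shift of 0.02). Signals under the 25th percentile were raised to that level, and log2 differences were taken (Python 3.11.15, pandas 2.3.3). A fold with 1 value at the floor is a lower bound. The number of arrays limits precision, and no test was possible.

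Members and lists were chosen with earlier results of these data known. All members are named, and of each list the genes beyond 1.5-fold or the 2 brightest measured ones. Other genes, and all genes of a list added later, were named outside that rule after their values were seen. The steps were tested on simulated data. Other settings were tried in 9 ways, and 2 more were chosen after seeing the data: the mean of all probe sets with no floor, and centring on muscle markers.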

Additional observations from a re-analysis of the deposited data

How the results depend on the processing

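Over 11 alternatives (no centring, quantile normalization, a loess trend removed, no floor, a floor at the median, no filter, a filter at the 75th percentile, all probe sets averaged, no _s_at or _x_at probe sets, and the 2 added ones), the median of the measured members ran from -0.01 (centred on muscle markers) to 0.32 and that of the clustering genes from -0.32 to -0.07. The number of measured members beyond 1.5-fold was 0 except with no filter, where it was 1 (Rapsn). Chrng ran from -0.58 to 0.52, and its lowest value came with all probe sets averaged and no floor. The filter at the 75th percentile left 1 member, Chrnb1, and averaging all probe sets left 3. Some list medians near 0 turned sign. The adult muscle list ran from -0.26 to 0.13 and was negative under several alternatives. Other lists were negative only when centred on muscle markers, which lowers every gene by 0.25. These were agrin signalling (-0.11 to 0.30) and neuregulin and synaptic transcription (-0.15 to 0.36). So were the synaptic cleft and basal lamina (-0.13 to 0.14) and the neuronal receptor subunits (-0.16 to 0.12, over 8 alternatives). The fetal minus adult difference had no value except with no floor (1.92, or 0.85 with probe sets averaged). No paired analysis was possible because each genotype had 1 embryo. Low signal over background limits Chrnd, Chrne, Musk and Rapsn.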

Other observations

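A further list, added after the first values were seen, held 15 other genes whose human counterparts are linked to congenital myasthenic syndromes, inherited failures of this synapse. Of these 14 were measured, all within 1.5-fold, 7 of them positive, with a median of 0.01. By the brightest probe sets the range was from -0.27 for Gmppb, an enzyme of protein glycosylation, to 0.20 for Tor1aip1, a protein of the nuclear envelope (-0.14 by its other measured probe set). Prepl, the brightest of them and a peptidase-like protein, was at 4663 and 4910 (0.09), but its other measured probe sets gave 0.61, and that of Plec gave 0.56 against -0.02. Gfpt1, the entry enzyme of the hexosamine pathway, had signals of 2868 and 2930 (wild type, then null, with a difference of 0.05). Dpagt1, which starts N-linked glycosylation, was at 733 and 802 (0.15). Among genes of the presynaptic release machinery Snap25 was at 3357 and 3785 (0.19, and -0.27 by its other measured probe set), Vamp1 at 260.5 and 277 (0.11), and Syt2 was dim at 165 and 157. Most of these genes are expressed in many tissues, so the list does not read muscle alone.

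In the adult muscle list, Clcn1, the chloride channel gene of mature fibres, was at the floor in wild type (51.2) and at 138 on the null array, a difference of at least 1.40. It was not counted among measured genes because both arrays were below the median. Of the neuronal receptor subunits, Chrnb4 was at 22 and 101, a difference of at least 0.95, and its other probe set had the opposite sign. Both were chosen after their values were seen.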
